A study of Mus musculus with 5 samples.

Results

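The bile canaliculus is the narrow channel between neighbouring hepatocytes into which bile is first secreted, and its membrane carries dedicated exporters. Bile salts, phospholipid, sterols, organic anions, organic cations and copper each leave the hepatocyte through their own pump or exchanger, and flippases keep the membrane asymmetric so that it withstands the bile salts. Defects of these pumps are known causes of cholestasis, sitosterolaemia, Dubin-Johnson syndrome and Wilson disease. Reported here are 8 genes of this membrane, taken by gene symbol and not by their measured values: Abcb11, Abcc2, Abcg5, Abcg8, Abcg2, Atp8b1, Atp7b and Slc47a1. They are 8 of the 36401 genes listed for each library, and all 8 were among the 13959 genes with enough counts to be tested.

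Livers came from BALB/C mice killed on day 10 of life, with RNA from lobe 1. The groups were Mdr2+/+ (wild-type, 2 libraries) and Mdr2+/- (heterozygous, 3 libraries), kept as littermates in a line into which the Mdr2 knockout had been backcrossed. Mdr2 is an older name of Abcb4, the canalicular floppase that delivers phosphatidylcholine into bile, and the comparison asks what differs when 1 copy is missing. The labels give neither the sex of the pups nor which of them shared a litter, and do not state that the libraries come from different pups, so p-values here measure only the spread between these samples, which may be technical. Libraries held 11944157 to 17312851 estimated counts. The 8 genes had 426 to 6879 counts in a library, so that counting error alone was at most 4.84% of a value.

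Abcb4 itself stood at 162 and 162 CPM (normalised counts scaled to a common library size) in the wild-type libraries and at 101, 97.7 and 92.6 CPM in the heterozygous ones, lower as labelled (log2 fold change -0.74, SE 0.06, adjusted p = 3.4e-04). All log2 fold changes are heterozygous minus wild-type, from edgeR's quasi-likelihood test (p-values adjusted across the 13959 genes after Benjamini and Hochberg), and a gene is said to have risen or fallen where the adjusted p was under 0.05. An adjusted p without a named fit is from all 5 libraries.

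Abcg5 and Abcg8 are shown first by their promoter, because both rose and their starts lie head to head. They encode the half-transporters that join into 1 pump for cholesterol and plant sterols. On chromosome 17 of GRCm38 (mm10), Abcg5 (ENSMUSG00000040505, minus strand) spans 84658234 to 84683011 and Abcg8 (ENSMUSG00000024254, plus strand) spans 84676302 to 84700333, where the longest Abcg8 model runs back across part of Abcg5. RefSeq places 1 Abcg8 start at 84683121, so that 109 bases separate it from the Abcg5 start. These bases are printed on the plus strand (chr17:84683012-84683120), with matches to the GATA-factor motif AGATAA, read on either strand, in capitals. They overlap no annotated exon and lie in an intron of the longer Abcg8 model.

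Abcg5 to Abcg8 interval: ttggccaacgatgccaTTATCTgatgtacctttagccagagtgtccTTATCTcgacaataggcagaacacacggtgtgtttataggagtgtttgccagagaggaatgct

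This short interval held 2 matches. The windows of 300 bases around either start (250 before, 50 after) each held 3, and they share 209 bases. Of 32851 such RefSeq windows in the mouse genome, 11.2% held at least 1 match and 0.107% held 3 or more. No other start of the 8 genes in the table, which covers 6 of them, had a match, the other Abcg8 start included. A match is a run of letters and not a shown binding site, and the letters are those of the reference strain, not of BALB/C.

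Abcb11 is the textbook target of FXR, the bile acid receptor of the nuclear receptor family. The 250 bases before its start are printed 5′ to 3′ along the gene (chr2:69342617-69342866, minus strand, intergenic), as a contrast to the sterol pump interval, with capitals for the 1 match to the nuclear receptor half-site AGGTCA, which lies on the other strand as TGACCT, and the 7 bases before it.

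Abcb11: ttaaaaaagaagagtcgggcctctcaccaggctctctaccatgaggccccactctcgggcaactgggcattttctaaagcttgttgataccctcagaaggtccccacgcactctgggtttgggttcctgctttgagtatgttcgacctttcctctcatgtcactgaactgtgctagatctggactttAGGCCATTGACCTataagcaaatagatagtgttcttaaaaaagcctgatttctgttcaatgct

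In the 300-base windows, half-sites were not particular to Abcb11, which held 1. Abcc2 and Atp7b also held 1, the 3 Abcg2 windows held 2, 0 and 1, and the Abcg5 and Abcg8 windows held 0. At least 1 was found in 16.3% of all 32851 windows. The exact inverted repeat of 2 half-sites with 1 base between them (IR-1) was found in 0 windows of the 6 genes and in 3 of all windows. The capitals in Abcb11 differ from it by 1 letter. A search allowing 1 letter off, added after the sequence was seen, found it in Abcb11 alone among the windows of the 6 genes and in 27 of all windows (0.0822%).

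Of the 8 transporters, 4 rose in heterozygous livers, 1 fell and 3 did not pass the test. The 4 that rose were the sterol pump genes Abcg5 and Abcg8, the aminophospholipid flippase Atp8b1 and the conjugate exporter Abcc2. The 1 that fell was Abcg2, and Abcb11, Atp7b and Slc47a1 did not pass. Among all tested genes 12% were called, 6.63% as higher and 5.41% as lower. The median log2 fold change was 0.35 over the 8 genes and -0.00 over all tested genes. Scaling by library size alone moved the split of all called genes from 925 higher and 755 lower to 704 higher and 936 lower, with the 8 transporters still at 4 and 1. Heterozygous and wild-type libraries did not overlap for 7 of the 8 (45.5% of all tested genes), 6 of them higher (22.9%) and 1 lower (22.7%).

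**Figure D1:**
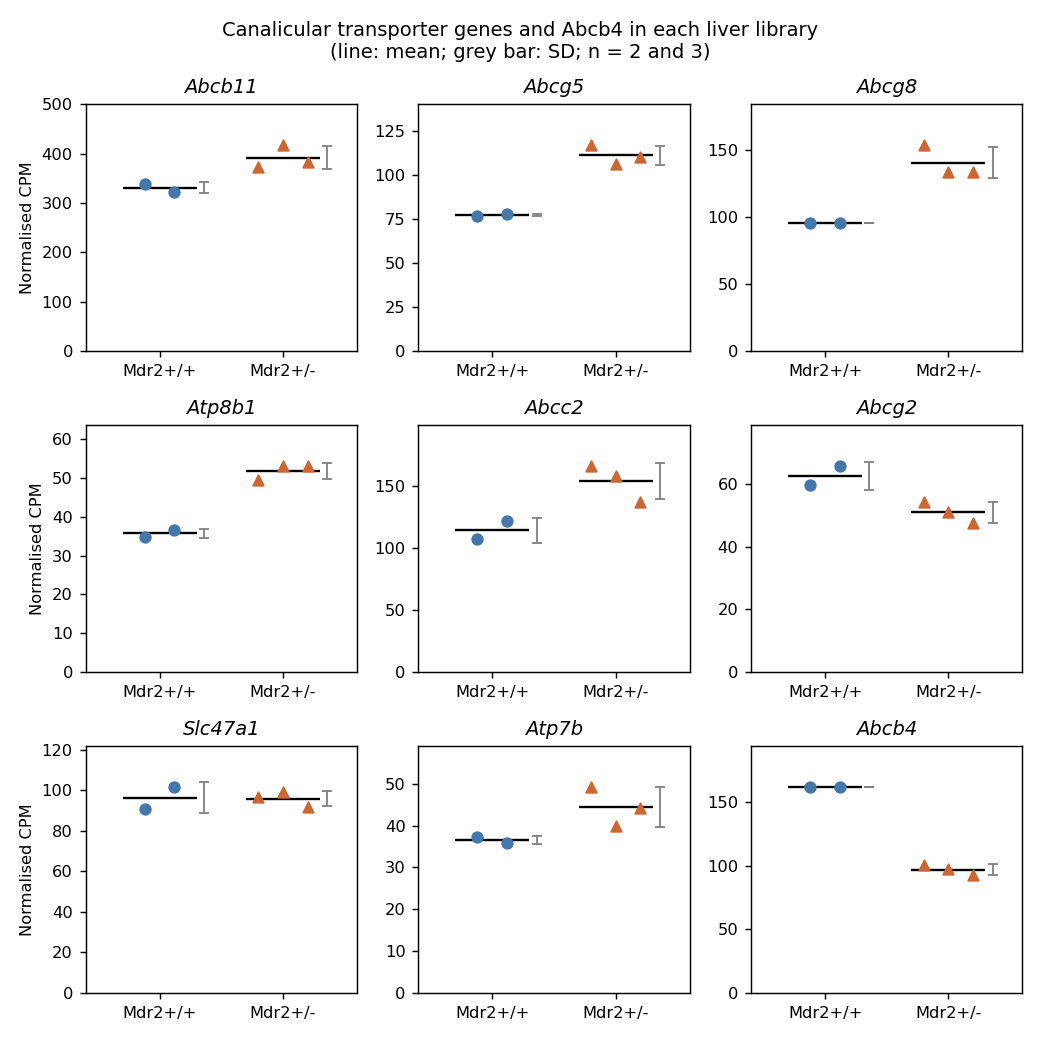
Normalised CPM of the 8 transporter genes and Abcb4 in each library, with Mdr2+/+ as circles and Mdr2+/- as triangles, the group mean as a line and the SD as a grey bar. Heterozygous libraries lie above both wild-type libraries for Abcb11, Abcg5, Abcg8, Atp8b1, Abcc2 and Atp7b, below both for Abcg2 and Abcb4, and among them for Slc47a1.

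The sterol pump genes rose in every fit that was run. Abcg5 was at 76.7 and 77.7 CPM in wild-type and at 117, 106 and 109.9 CPM in heterozygous libraries. The wild-type pair was close together and every heterozygous library stood above it. The means were 77.2 ± 0.742 (SD, n = 2) and 111 ± 5.39 CPM (SD, n = 3), a ratio of 1.44 (log2 fold change 0.52, SE 0.07, adjusted p = 0.00174). Abcg8 was at 95.8 CPM in both wild-type libraries and at 154, 134 and 133 CPM in the heterozygous ones. Again the groups were apart, and heterozygous replicate 1 was the highest library for both genes. The Abcg8 means were 95.8 ± 0.0124 and 140.4 ± 11.6 CPM, a ratio of 1.46 (log2 fold change 0.55, SE 0.08, adjusted p = 0.00298). Its wild-type SD comes from 2 values and lies below counting error alone (2.96% at the lowest Abcg8 count), so it does not measure precision. The same holds for the wild-type SD of Abcg5 (3.29% counting error at its lowest count) and for the very small ones of Abcb4 and Pdzk1 given below. The calls of Abcg5 and Abcg8 held in 13 of 13 alternative fits, with log2 fold changes of 0.49 to 0.56 for Abcg5 and 0.48 to 0.59 for Abcg8. The annotated exons of the 2 genes share 82 bases on opposite strands. Whether counting used the strand is not given in the sources used here, so a small part of their reads could be assigned to either.

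Since both subunits are needed for a working pump, their ratio was also read in each library, per base of the longest transcript. Abcg5 over Abcg8 was 1.25 and 1.27 in the wild-type libraries and 1.19, 1.24 and 1.28 in the heterozygous ones. The groups overlapped, and the difference of the mean log2 ratios was -0.02 (exact two-sided permutation test, p = 0.7, where 10 groupings of the libraries allow no p below 0.1).

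Atp8b1 (ENSMUSG00000039529, chromosome 18, 64528967 to 64661267, minus strand) encodes the flippase that returns phosphatidylserine to the inner leaflet of the canalicular membrane, and its loss in people causes progressive familial cholestasis. It was at 34.9 and 36.6 CPM in wild-type and at 49.4, 53.0 and 53.2 CPM in heterozygous libraries. All 3 heterozygous values lay well above the wild-type pair. The means of 35.7 ± 1.22 and 51.8 ± 2.14 CPM gave a ratio of 1.45 (log2 fold change 0.54, SE 0.07, adjusted p = 0.00203), and the call held in 13 of 13 alternative fits (0.43 to 0.58). Its obligate partner subunit Tmem30a was at 207 and 210.3 CPM against 231, 236 and 235 CPM and did not pass (log2 fold change 0.16, 95% interval 0.03 to 0.30, adjusted p = 0.105). Per transcript length, Atp8b1 over Tmem30a was 0.0916 and 0.0947 in the wild-type libraries and 0.117, 0.122 and 0.123 in the heterozygous ones. These groups did not overlap (difference of log2 ratios 0.37, exact permutation p = 0.1, the smallest this design allows).

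Abcc2 (ENSMUSG00000025194, chromosome 19, 43782192 to 43840740, plus strand) encodes MRP2, which exports conjugated bilirubin and glutathione conjugates. It was at 107 and 122 CPM in wild-type and at 166, 158 and 137 CPM in heterozygous libraries. The lowest heterozygous library was still above the higher wild-type one, though the spread within each group was wider than for the sterol pump. The means were 114 ± 10.2 and 154 ± 14.9 CPM, a ratio of 1.35 (log2 fold change 0.43, SE 0.09, adjusted p = 0.0176). The call was lost without wild-type replicate 1 (0.34, adjusted p = 0.123), without heterozygous replicate 2 (0.41, adjusted p = 0.0580) and with a transcript length offset (0.30, adjusted p = 0.0618), and it held in 10 of 13 alternative fits.

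Abcb11 (ENSMUSG00000027048, chromosome 2, 69238282 to 69342616, minus strand) encodes BSEP, the bile salt export pump. It was at 338 and 323 CPM in wild-type and at 373, 418 and 383 CPM in heterozygous libraries. The groups did not overlap, with heterozygous replicate 2 the highest library and wild-type replicate 2 the lowest. The means were 331 ± 11.1 and 391 ± 23.3 CPM (ratio 1.18, log2 fold change 0.24, 95% interval 0.09 to 0.40), and the gene missed the threshold (adjusted p = 0.0531). It passed in 4 of 13 alternative fits, among them DESeq2 (adjusted p = 0.0313), and in 0 of 5 fits with a library left out.

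Atp7b (ENSMUSG00000006567, chromosome 8, 21992785 to 22060305, minus strand) is the copper pump altered in Wilson disease. It was at 37.2 and 35.8 CPM in wild-type and at 49.3, 39.9 and 44.3 CPM in heterozygous libraries. All heterozygous values were the higher ones, with heterozygous replicate 2 close to wild-type. The means of 36.5 ± 1.00 and 44.5 ± 4.71 CPM did not differ past the threshold (log2 fold change 0.28, 95% interval 0.07 to 0.49, adjusted p = 0.0806). Without heterozygous replicate 2 it did pass (0.35, adjusted p = 0.0492).

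Slc47a1 (ENSMUSG00000010122, chromosome 11, 61343401 to 61378345, minus strand) encodes MATE1, which exchanges organic cations for protons. It was at 90.9 and 102 CPM in wild-type and at 96.5, 99.3 and 91.8 CPM in heterozygous libraries. The groups overlapped, and the 95% interval of the log2 fold change ran from -0.16 to 0.15 (adjusted p = 0.974).

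Abcg2 (ENSMUSG00000029802, chromosome 6, 58584523 to 58695676, plus strand) encodes BCRP, an exporter of urate, sulfate conjugates and many drugs that is also made by blood progenitors, red cells and endothelium. It was at 59.5 and 65.8 CPM in wild-type and at 54.4, 50.9 and 47.5 CPM in heterozygous libraries. All heterozygous values were the lower ones. The means were 62.6 ± 4.44 and 50.9 ± 3.44 CPM, a ratio of 0.813 (log2 fold change -0.30, SE 0.08, adjusted p = 0.0367). The call was lost when either wild-type library was left out (-0.38, adjusted p = 0.0561 for replicate 1 and -0.22, adjusted p = 0.178 for replicate 2). The same was so for heterozygous replicates 2 (-0.30, adjusted p = 0.0952) and 3 (-0.25, adjusted p = 0.115). DESeq2 did not call it either (adjusted p = 0.0583), and it held in 7 of 13 alternative fits, with the direction kept in all 13. Erythroid markers were also lower in heterozygous livers, in 7 of 8 tested genes (6 by DESeq2) and from a summed level of 2927 to 3536 CPM down to 1725 to 1969 CPM, and their part in the Abcg2 difference was not tested.

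**Figure D2:**
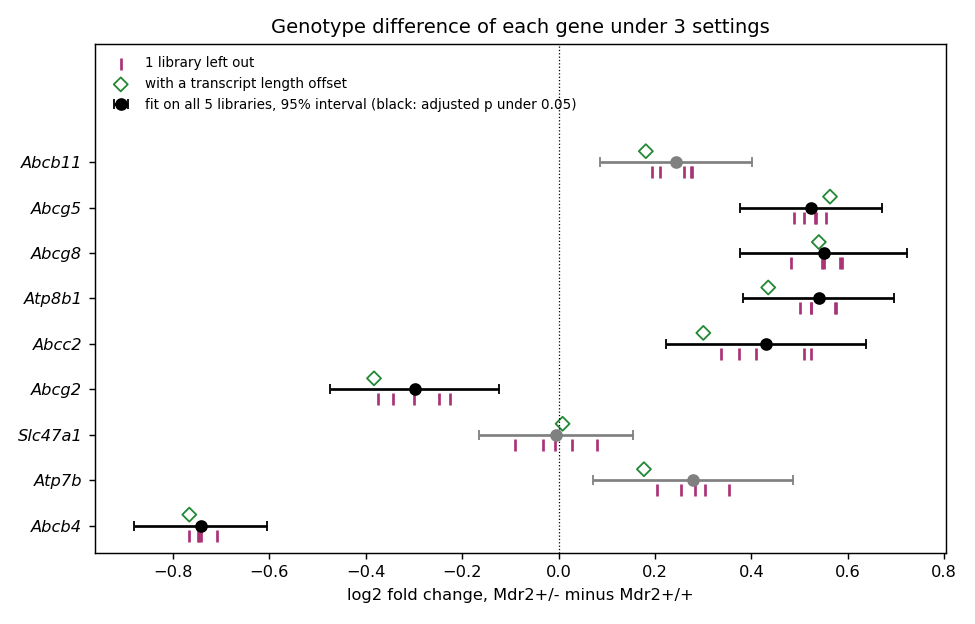
Log2 fold change of each gene (x axis, heterozygous minus wild-type) from the fit on all 5 libraries with its 95% interval, black where the adjusted p was under 0.05 and grey otherwise. Ticks show fits with 1 library left out and diamonds the fit with a transcript length offset. The point estimates of Abcg5, Abcg8 and Atp8b1 stay between 0.43 and 0.59 in all of these fits, and those of Slc47a1 lie on both sides of 0.

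Fold changes in these libraries ran with transcript length (Spearman rho = 0.27 across 13571 tested genes with an annotated length, which are not independent replicates). Of the 8 genes, 6 have a longest transcript above the tested median of 3279 bases, up to 8027 bases for Abcc2, while Abcg5 (2351 bases) and Slc47a1 (2987 bases) are shorter. With an offset that removes this trend in each library, the log2 fold change was 0.56 for Abcg5, 0.54 for Abcg8 and 0.43 for Atp8b1, each still called. It was 0.18 for Abcb11 (adjusted p = 0.147), 0.18 for Atp7b (adjusted p = 0.229) and -0.38 for Abcg2 (adjusted p = 0.0129).

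Levels of different genes can be set side by side only per length, here as CPM per kilobase of the longest transcript. In wild-type livers Abcb11 led at 65.8 ± 2.21, ahead of Abcb4 at 39.7 ± 0.00682. Abcg5 (32.8 ± 0.316) and Slc47a1 (32.2 ± 2.56) came next and overlapped between libraries, and Abcg8 followed at 26.1 ± 0.00337. Abcc2 (14.2 ± 1.27) and Abcg2 (11.0 ± 0.776) were lower, and Atp7b (5.62 ± 0.154) and Atp8b1 (5.32 ± 0.181) were the lowest. In heterozygous livers Abcb11 was at 77.8 ± 4.64, Abcg5 at 47.2 ± 2.29, Abcg8 at 38.3 ± 3.17 and Slc47a1 at 32.1 ± 1.28. All of these then stood above Abcb4 at 23.8 ± 0.997, which had been second in wild-type. Atp8b1 (7.71 ± 0.318) and Atp7b (6.84 ± 0.724) overlapped there. The place of Abcb4 depends on the length used, since per kilobase of all its annotated exons it stood at 17.3 in wild-type and 10.3 in heterozygous livers, below Abcg8 (25.6 and 37.4) in both.

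Bile salt and phospholipid enter bile through Abcb11 and Abcb4, so their transcripts were also compared as a ratio. Abcb11 over Abcb4 was 1.69 and 1.62 for the wild-type group and 3.01, 3.47 and 3.36 for the heterozygous one. The sterol pump ratio, Abcg5 over Abcb4, was 0.820 and 0.832 against 2.02, 1.89 and 2.06. Atp8b1 over Abcb4 was 0.131 and 0.137 against 0.298, 0.329 and 0.349. None of these 3 ratios overlapped between genotypes, with differences of 0.98, 1.27 and 1.28 in log2 ratio (exact two-sided permutation p = 0.1 each, the smallest possible). In all, 5 ratios were compared, and Abcb4 is the gene whose allele was removed. Transcript ratios say nothing of protein in the membrane.

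**Figure D3:**
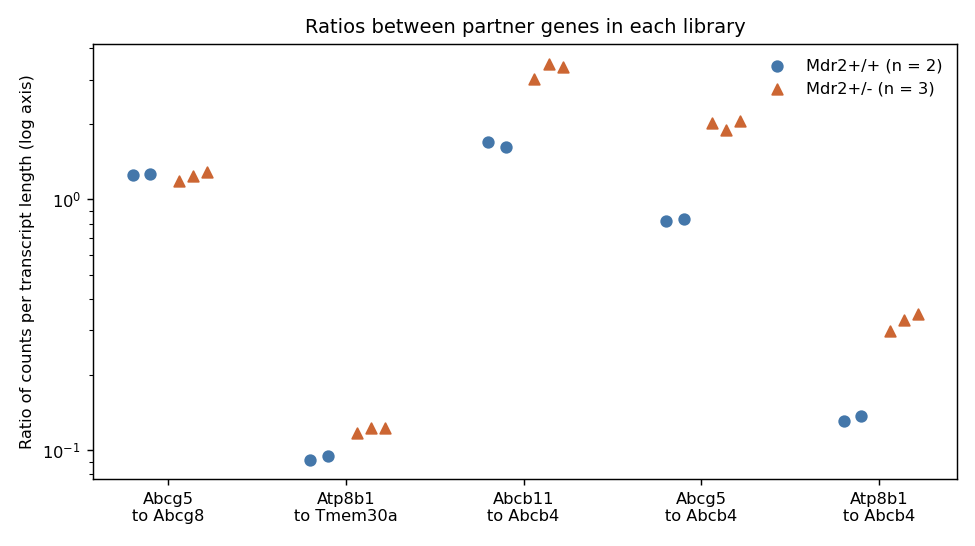
Ratio of counts per transcript length for 5 pairs of genes in each library, on a log axis, with Mdr2+/+ as circles and Mdr2+/- as triangles. Abcg5 to Abcg8 stays between 1.19 and 1.28 in all 5 libraries, and the 3 ratios to Abcb4 separate the genotypes.

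Genes with the most similar course over the 5 libraries were sought among 8125 other tested genes at 10 CPM or more on average, by the root mean square difference of centred log2 CPM. The nearest to Abcg5 were Dgkd (0.0297 log2 units) and Saa4 (0.0318), and Abcg8 itself was at 0.0390, with 3 genes nearer. For Abcg8 the nearest were Senp5 (0.0322) and Dgkd (0.0348), with Abcg5 next after these 2. The nearest to Atp8b1 were Nrip1 (0.0185) and Ivd (0.0301), to Abcc2 Prkce (0.0213) and Inmt (0.0277), and to Abcb11 Ranbp2 (0.0221) and Uspl1 (0.0240). Those of Abcg2 were Rab4a (0.0172) and Acer3 (0.0221). Among those of Atp7b was Col16a1 (0.0163), and among those of Slc47a1 was Sgta (0.0144). Abcg5 and Abcg8 were the closest pair among the 8. The next was Atp8b1 with Abcg5, at 0.0822 and with 81 genes nearer to Atp8b1. With 5 libraries in 2 groups, these distances mostly reflect the genotype difference, and they are given as a description.

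Counts in the lists below stand beside 6.63% of all tested genes called higher and 5.41% called lower. Around the exporters, 11 of 12 other canalicular membrane proteins were tested, of which 1 rose, 1 fell (Abcb4) and 9 did not pass (median 0.15). The rise was that of Aqp8, a canalicular water channel, at 49.0 and 55.9 CPM in wild-type and 65.5, 75.5 and 68.6 CPM in heterozygous libraries (log2 fold change 0.42, adjusted p = 0.0142), lost without wild-type replicate 1 (0.32, adjusted p = 0.102). Npc1l1, which takes cholesterol back from bile in people, had 0 counts in every library, where 3 counts would be 0.173 to 0.251 CPM. Of 20 partner, anchoring and trafficking genes, 1 rose and 1 fell in edgeR (median 0.08), against 1 and 0 in DESeq2. Rdx, encoding radixin, which ties MRP2 to the actin skeleton, rose from 152 ± 2.59 to 182 ± 4.77 CPM (log2 fold change 0.25, adjusted p = 0.0271). Pdzk1, a scaffold for membrane transporters, fell from 72.6 ± 0.0559 to 61.7 ± 2.21 CPM (-0.23, adjusted p = 0.0385), and 1333 of its exonic bases overlap Gpr89 on the opposite strand. Both calls were lost with any 1 library left out (adjusted p = 0.0621 to 0.124 for Rdx and 0.0684 to 0.127 for Pdzk1).

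A list of 17 genes held transcription factors known to act on the transporters and Keap1, which is not a transcription factor. The list showed 2 rises and 0 falls (median 0.04) in edgeR, with 1 lower at an unadjusted p under 0.05, Nr1h4. There were 0 falls by DESeq2 but 1 by limma-voom. Rxra, the common partner of nuclear receptors, rose from 202 ± 9.54 to 272 ± 5.02 CPM (log2 fold change 0.43, adjusted p = 0.00384), called in 13 of 13 alternative fits. Ppara, the fatty acid receptor, rose from 52.6 ± 2.41 to 95.8 ± 18.0 CPM (0.86, adjusted p = 0.00517), with an adjusted p of 0.0503 without wild-type replicate 1. Nr1h4, Nr1h3 and Gata4 were named after their values were seen. Nr1h4, encoding FXR, had 68.0 and 62.2 CPM in the wild-type and 48.7, 58.5 and 52.2 CPM in the heterozygous group and missed the threshold (-0.29, adjusted p = 0.0532). Nr1h3, encoding LXR alpha, the oxysterol receptor known to act on Abcg5 and Abcg8, did not pass (0.10, 95% interval -0.04 to 0.25, adjusted p = 0.333). Gata4 did not pass either (0.07, 95% interval -0.11 to 0.26, adjusted p = 0.605).

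Cholesterol export and other LXR target genes showed 3 rises among 14 (median 0.03) in edgeR, as in DESeq2. Srebf1, the lipogenic transcription factor, was at 236 and 235 CPM in wild-type and 393, 394 and 378 CPM in heterozygous libraries (log2 fold change 0.72, adjusted p = 3.7e-04). Mylip, which degrades the LDL receptor, rose from 11.5 ± 0.402 to 16.1 ± 1.18 CPM (0.48, adjusted p = 0.0195), a call lost without wild-type replicate 1 or 2 (adjusted p = 0.0722 and 0.0838). Abca1, the exporter of cholesterol to apolipoprotein A1, rose from 238 ± 6.71 to 291 ± 16.7 CPM (0.29, adjusted p = 0.0274). Abca1 has a long transcript (10262 bases) and a log2 fold change of 0.13 with the length offset (adjusted p = 0.237), and its call held in 1 of 5 fits with a library left out, the one without heterozygous replicate 2.

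Copper genes beside Atp7b moved both ways, with 2 of 14 higher and 2 lower in edgeR (median 0.08). DESeq2 called 2 higher and 1 lower, and limma-voom 3 higher and 2 lower. Atp7a, the copper pump of most other tissues, rose from 2.33 ± 0.912 to 5.11 ± 0.975 CPM (log2 fold change 1.10, adjusted p = 0.0283) at a low level. With 1 library left out its log2 fold change ran from 0.78 to 1.59, and the call was lost for wild-type replicate 2 (adjusted p = 0.129) and for heterozygous replicates 1 (0.0540) and 2 (0.0834). Steap4, a metalloreductase, rose from 108 ± 15.2 to 147 ± 3.93 CPM (0.45, adjusted p = 0.0111). Without wild-type replicate 1 its log2 fold change was 0.30 and the call was lost. Steap4 lies on chromosome 5 (7960457 to 7982213), as does the targeted Abcb4 (8893717 to 8959231). The part of sequence linked to the removed allele in this rise was not tested. Sod1, the copper-zinc superoxide dismutase, fell from 563 ± 42.8 to 440.5 ± 7.15 CPM (-0.35, adjusted p = 0.0105; -0.27 and 0.0576 without wild-type replicate 2). Atox1, the chaperone that hands copper to Atp7b, fell at the threshold (-0.22, adjusted p = 0.04998), and was not called with any library left out (0.0894 to 0.188) or with the length offset (-0.01, adjusted p = 0.945).

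Carriers of the opposite, blood-facing membrane showed 3 rises and 1 fall among 11 tested of 12 (median -0.08). Slco2b1, an organic anion uptake carrier, rose from 8.49 ± 0.608 to 18.8 ± 1.81 CPM (log2 fold change 1.16, adjusted p = 8.5e-04), called in 13 of 13 alternative fits. Slc22a7, an organic anion transporter, rose by a ratio of 1.24 (0.32, adjusted p = 0.0158) and Abcc6 from 134 ± 2.65 to 163 ± 7.09 CPM (0.28, adjusted p = 0.0228). Slc51b, a subunit of the basolateral bile acid exporter, fell from 7.10 ± 0.519 to 3.50 ± 0.989 CPM (-1.02, adjusted p = 0.0172). The Slc22a7 call was lost when wild-type replicate 1, heterozygous replicate 2 or heterozygous replicate 3 was left out (adjusted p = 0.0507 to 0.104), and that of Slc51b without either wild-type replicate (0.0520 and 0.105). Abcc6 kept its call only without heterozygous replicate 2 (0.0520 to 0.0970 in the other 4).

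**Figure D4:**
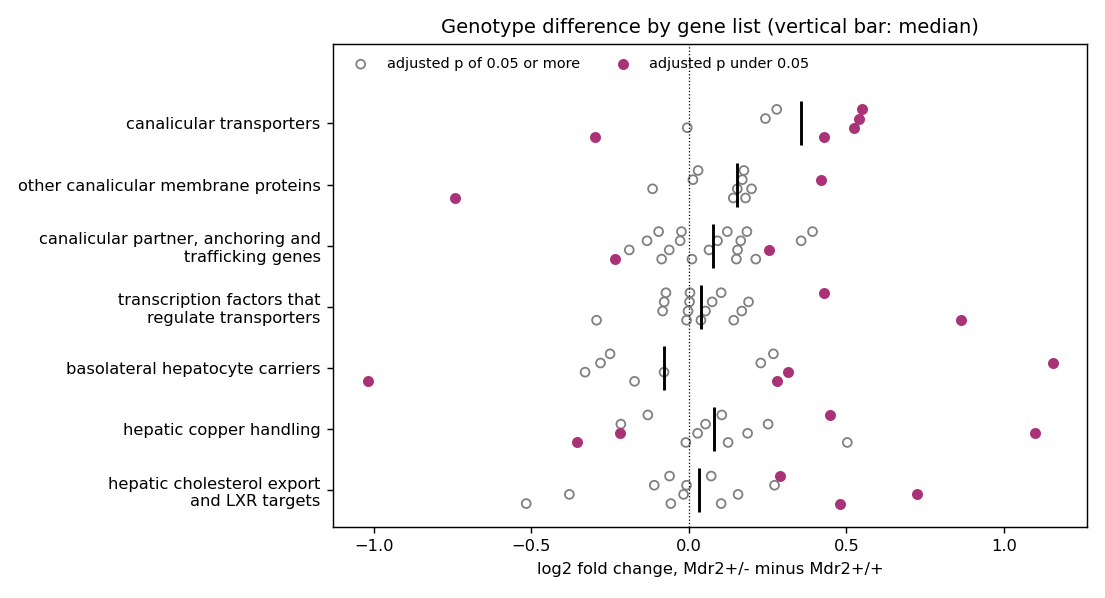
Log2 fold change (x axis, heterozygous minus wild-type) of every tested gene in the 8 transporters and 6 related lists, filled where the adjusted p was under 0.05, with the list median as a vertical bar. The medians are 0.35 for the transporters and -0.08 to 0.15 for the other lists.

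In whole liver, fewer cells of a type and less RNA per cell cannot be told apart, and blood cell markers moved with the genotype. Beside the erythroid markers given with Abcg2, neutrophil markers rose in 8 of 8 genes (summed level 122 to 172 CPM in wild-type against 368 to 475 CPM). Hepatocyte markers showed 1 rise (Cps1, 0.87, adjusted p = 0.0011) and 1 fall (Apoa1, -0.21, adjusted p = 0.0458) among 9 in edgeR. DESeq2 and limma-voom each called 2 higher and 1 lower. The median of these markers was -0.02, and their summed level was 208239 to 224820 against 217383 to 235407 CPM. The largest part of that sum was Alb at 119084 to 146449 CPM, which bears out the tissue label. Among 8 cholangiocyte markers 0 passed in edgeR, DESeq2 or limma-voom, with 1 (Spp1) lower at an unadjusted p under 0.05. Of 8 macrophage markers 1 (Marco) was lower in edgeR and 0 in DESeq2 or limma-voom, with 2 and 0 lower at an unadjusted p under 0.05 in the latter tools. In each of the 3 tools 0 macrophage markers passed as higher, and 1 was higher at an unadjusted p under 0.05. Of 8 sinusoidal endothelial markers 3 were lower in edgeR and limma-voom and 2 in DESeq2, with 4 log2 fold changes above 0. For these markers too, 0 passed as higher and 1 was higher at an unadjusted p under 0.05 in each tool. Of 5 kidney tubule markers 1 was tested, Slc22a8, and it was lower in all 3 tools at a low level. It was at 3.76 and 1.93 CPM in wild-type and at 1.65, 0.728 and 0.465 CPM in heterozygous libraries. No matched marker of these lists was at 0 in every library, and Tf and Ahsp could not be matched to a counted gene. Slc34a1 and Umod were at 0 outside heterozygous replicate 2 (0.0607 CPM each), and Slc22a6 outside wild-type replicate 1 (0.0660 CPM). These values lie below 3 counts (0.173 to 0.251 CPM). The part of these shifts in the transporter values was not tested.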

How the data were processed

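RNA was sequenced from 5 liver samples of BALB/C pups (2 Mdr2+/+, 3 Mdr2+/-). The deposited values are estimated counts per gene, which the authors made from reads aligned with TopHat to mm10, per the submitters' processing notes; for the counting tool, its annotation and its use of strand, nothing is given in the sources used here. Only 33.9% to 37.3% of values above 0 were whole, so counts were rounded. Genes passed a filter for low counts (edgeR 4.0.16, filterByExpr, minimum 10) and were scaled by TMM. Groups were compared over all 13959 tested genes by edgeR's quasi-likelihood test with Benjamini-Hochberg adjustment, checked on simulated counts. The check recovered 55.2% of genes changed by 0.5 in log2 and 98.5% of those changed by 1.0. Its simulated spread followed the trend over genes, not each gene's own spread. Intervals are 95%. Ratios of gene pairs used exact permutation tests. Positions and lengths are from GENCODE M21, promoters from RefSeq (GRCm38.p6). Alternatives were other scalings and filters, DESeq2 1.42.0, limma-voom (limma 3.58.1), a replicate block, a transcript length offset and each library left out. Libraries of a group differed beyond sampling noise (chi-square per degree of freedom 5.30 to 8.87), so none was dropped as a copy of another. This check compares with counting noise only and cannot show that libraries come from different pups.

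The 8 genes and the other lists were chosen with earlier results of these data known. Named outside the 8 were up to 4 called genes per list with the smallest p, or the 2 with the smallest p where none was called, and for each of the 8 the 2 genes of nearest profile. Tmem30a is named as the partner of Atp8b1, and Keap1, Tf and Ahsp only as list members. Nr1h4, Nr1h3, Gata4, Npc1l1, Alb, Cps1, Apoa1, Spp1, Marco, Slc22a8, Slc34a1, Umod and Slc22a6 were named after their values were seen. Some genes that this rule names are not reported here.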

Additional observations from a re-analysis of the deposited data

How the results depend on the processing

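Abcg5, Abcg8 and Atp8b1 kept direction and call in all 13 alternative fits. The other 5 genes changed call or sign in at least 1, and the cause was not tested. Abcb11 passed with no filter (0.25), with at least 10 counts in every library (0.24), by DESeq2 (0.24) and by limma-voom (0.24). Abcc2 did not pass with the length offset (0.30), nor Abcg2 by DESeq2 (-0.30) or with the replicate block (-0.25), which leaves 0 of the 8 called lower in both (edgeR and DESeq2 alike gave 1 at an unadjusted p under 0.05). Atp7b passed with no filter (0.29). Slc47a1, never called, turned to 0.0034 with no filter, 0.026 with the replicate block and 0.0085 with the length offset. With 1 library left out, log2 fold changes ran from 0.34 to 0.52 for Abcc2, -0.38 to -0.22 for Abcg2, 0.20 to 0.35 for Atp7b and -0.089 to 0.079 for Slc47a1, and 0 to 1 of the 8 were called lower. The Abcg5 to Abcg8 difference ran from -0.053 to 0.0045, above 0 without heterozygous replicate 1.

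Of all genes, 697 to 1174 were called with 1 library left out (345 to 670 higher, 352 to 504 lower), against 1680. The count was 697 without wild-type replicate 1, 907 without replicate 2, and 838 and 1068 without heterozygous replicates 2 and 3. With summed exon length, wild-type log2 ratios were 0.16 for Abcg5 to Abcg8, -2.80 for Atp8b1 to Tmem30a, 1.89 for Abcb11 to Abcb4, 0.72 for Abcg5 to Abcb4 and -1.70 for Atp8b1 to Abcb4. The labels number replicates alike in both groups, and samples with the same number deviated together only weakly (correlations 0.0304 and 0.0286 for 2 numbers), so they were not taken as pairs. Replicate 3 exists in the heterozygous group only, so with the replicate block that library adds nothing to the genotype difference. The replicate block gave 1277 called genes and changed no call of the 8 other than that of Abcg2. Rdx, Pdzk1, Abcc6, Atox1 and Abca1 were not called with it (adjusted p = 0.0707 to 0.0898). With 2 against 3 libraries, a p that misses the threshold does not show that levels were alike.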
